A study of Mus musculus with 20 samples.

Results

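The genes described here are 9 genes known from reactive astrocytes, taken by symbol from the 16003 genes of the single-cell count table: *Gfap*, *Vim*, *Nes*, *Serpina3n*, *Osmr*, *Cryab*, *Aqp4*, *Stat3* and *Sox9*. All 9 were present, and unique molecular identifiers (UMIs, each standing for 1 captured transcript) were counted for each of them. The cells came from spinal cords of female C57BL/6J mice aged 8 to 10 weeks. Mice received a contusion at the ninth thoracic level or a laminectomy only (sham), and the chow held PLX5622 at 1200 ppm or vehicle alone, from 2 weeks before surgery to the end point. PLX5622 inhibits the *Csf1* receptor, on which microglia depend for survival. The 6 groups were sham, 7 days post-injury (dpi) and 28 dpi under vehicle, and the same under PLX5622. Each group was 1 library made from the pooled cords of several mice, and the sham library of a diet, labelled with both 7 and 28 days, was the reference for both times. Differences between libraries therefore had no replicate check, and no test between groups was possible. The 95% intervals, given in brackets, cover counting error only and leave out any spread among mice or libraries. Those of levels and of ratios also leave out the spread among cells. Bulk RNA-seq samples of the study were not analysed here.

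Astrocytes respond to injury of the central nervous system by a graded change called reactive gliosis, in which they enlarge, express more intermediate filament proteins and, next to a lesion, form a border around it. Cytokines of the interleukin-6 family are well known triggers: they bind receptors such as the oncostatin M receptor, signal through gp130 and Janus kinases, and activate the transcription factor STAT3. Markers of reactive astrocytes are shared with other cells of the cord, and their use depends on knowing which cell type a transcript came from.

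The genes for the filament proteins GFAP and vimentin are the most used markers of this state, and the 250 bases before their transcription starts are shown because both genes were higher in astrocytes of injured cords. The bases are those of RefSeq for GRCm38.p6, read in the direction of transcription, from chr11:102897201-102897450 (minus strand) for *Gfap* and chr2:13574061-13574310 (plus strand) for *Vim*. Capitals mark a match to the TATA box letters TATAAA or to CCAAT, each searched on both strands.
Gfap: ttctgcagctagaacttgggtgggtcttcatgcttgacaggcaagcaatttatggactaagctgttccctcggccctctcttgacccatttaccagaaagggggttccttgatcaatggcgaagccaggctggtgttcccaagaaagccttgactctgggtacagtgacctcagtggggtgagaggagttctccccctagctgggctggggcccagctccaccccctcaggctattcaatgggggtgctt
Vim: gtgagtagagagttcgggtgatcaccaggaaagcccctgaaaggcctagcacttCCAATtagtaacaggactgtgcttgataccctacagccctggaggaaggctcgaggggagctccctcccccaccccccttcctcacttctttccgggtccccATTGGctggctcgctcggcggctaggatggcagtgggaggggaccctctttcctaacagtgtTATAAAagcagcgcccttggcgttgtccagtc
The *Vim* stretch held TATAAA 32 bases before the start and CCAAT or its reverse complement at 2 places, and the *Gfap* stretch held neither. Of all 32851 promoters of the same length, 12.4% held TATAAA and 33.8% held CCAAT. The spaced STAT motif TTCNNNGAA, held by 7.02% of all promoters, and the AP-1 motif TGANTCA, held by 6.75%, were in none of the 6 members with an entry (*Gfap*, *Vim*, *Nes*, *Serpina3n*, *Osmr* and *Stat3*). These matches describe letters only.

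The count table held 21016 cells in 14 clusters, numbered by the authors and named here from marker genes. Cluster 4, with 974 cells, was the astrocyte cluster: all 6 astrocyte markers, among them the glutamate transporter gene *Slc1a2* at 6549 CPM (the UMIs of a gene per 1000000 UMIs of the same cells), were highest there. It held 310, 69 and 245 cells in the sham, 7 dpi and 28 dpi vehicle libraries and 204, 39 and 107 cells in those of PLX5622-fed mice, with 105018 to 779726 UMIs per library. Any pair of libraries shared at most 21 cell barcodes.

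Before the levels, 2 features of this cluster have to be known. The first concerns UMIs of microglia and macrophages. Astrocyte cells with at least 3 UMIs summed over the myeloid genes *C1qa*, *C1qb*, *C1qc*, *Tyrobp* and *Fcer1g* made up 46.4% of the cluster at 7 dpi and 44.5% at 28 dpi under vehicle, but 3.23% in sham vehicle cords and 1.96%, 10.3% and 3.74% in the sham, 7 dpi and 28 dpi PLX5622 libraries. All 5 myeloid genes had UMIs in every library, and their summed level was 1154, 15662 and 14960 CPM under vehicle and 80.2, 1571 and 607 CPM under PLX5622. In the same order, the summed level of the 6 astrocyte markers was 29954, 16626 and 17843 CPM under vehicle and 32270, 27414 and 33740 CPM under PLX5622. Leaving those cells out brought the myeloid sum to 119, 866 and 829 CPM under vehicle and the astrocyte markers of injured vehicle cords to 37336 and 35213 CPM. Scrublet, a program that scores cells as doublets, was used to call a number of cells fixed by library size. These numbers were 26, 443 and 776 in the sham, 7 dpi and 28 dpi vehicle libraries and 2, 2 and 7 under PLX5622. Of the calls, 63 were among the 245 astrocytes at 28 dpi under vehicle and 0 to 8 in each other library. Because the numbers were set in advance, these calls do not compare libraries. Values are therefore given for all cells and for those with fewer than 3 of these UMIs, termed myeloid-low cells, and the part of the myeloid UMIs in each difference was not tested. This rule also sorts cells by depth. At 7 and 28 dpi under vehicle it kept 37 and 136 cells, of median 1241 and 994.5 UMIs. The cells left out had medians of 3259.5 and 1867 UMIs and held 69.8% and 64.2% of the cluster's UMIs. In the sham libraries the cells left out were shallower, at 1806 against 2024 UMIs under vehicle and 828 against 1633.5 under PLX5622.

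The second is 1 cell. In the 7 dpi PLX5622 library a cell of 23519 UMIs and 5850 genes held 22.4% of all UMIs of the cluster. It had 99 UMIs of *Slc1a2* and none of the 5 myeloid genes. It held 250 of the 268 *Vim* UMIs of that library's astrocytes, 332 of 504 for *Gfap*, 10 of 11 for *Nes*, 11 of 12 for *Osmr*, 21 of 34 for *Serpina3n* and 23 of 57 for *Cryab*, but 133 of 461 for *Aqp4* and 1 of 11 for *Stat3*. It exceeds the maximum of 3000 genes per cell in the study's stated filter. Its part in the 7 dpi PLX5622 values is therefore given by repeating them without it. In ratios and counts given without the cell of most UMIs, each library compared lost its own such cell. At 7 dpi under vehicle that was a cell of 11130 UMIs, with 57 UMIs of the myeloid genes and 16 of the 49 *Vim* UMIs.

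**Figure D1:**
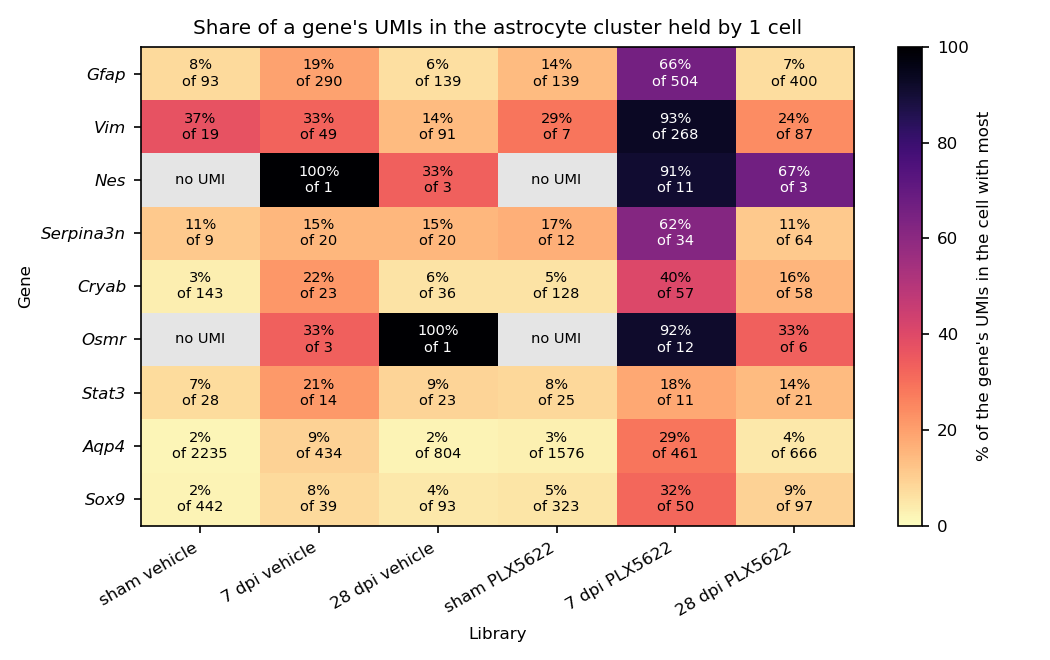
Share of each gene's UMIs in the astrocyte cluster (%, color scale) that was held by the cell with the most of them, for the 9 genes (rows) in the 6 libraries (columns), with the gene's total UMIs printed below each share. In the 7 dpi PLX5622 library 1 cell held 250 of 268 *Vim* UMIs and 332 of 504 *Gfap* UMIs, and in the 28 dpi PLX5622 library the top cell held 27 of 400 *Gfap* UMIs.

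Where the genes were expressed across clusters differed between them. *Aqp4* and *Gfap* were mostly astrocyte transcripts: 84.2% of the 7333 *Aqp4* UMIs and 57.0% of the 2748 *Gfap* UMIs were in the astrocyte cluster. The other members were not. Astrocytes held 24.7% of *Sox9*, 20.3% of *Serpina3n*, 17.8% of *Cryab*, 4.11% of *Osmr*, 2.28% of *Stat3*, 1.09% of *Vim* and 0.781% of *Nes* UMIs.

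The order of levels, taken as the median CPM over libraries with at least 20 cells of a cluster, showed each gene's main cell types. For *Aqp4*, the water channel gene, astrocytes (median 2778 CPM, range 1942 to 4394) were followed by ependymal cells (212 CPM, range 162 to 238), with no overlap between them. The ependymal range did not overlap with B cells, next by median, but lay within that of oligodendrocyte lineage cells (0 to 410 CPM). For *Gfap*, astrocytes (957 CPM, range 119 to 4799) were followed by ependymal cells (69.7 CPM, range 29.7 to 174), and these ranges overlapped. *Sox9*, a transcription factor gene of glial identity, was highest in ependymal cells (969 CPM, range 783 to 1249), which held 70.0% of its UMIs, and next in astrocytes (514 CPM, range 212 to 640), again without overlap.

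The remaining genes peaked elsewhere. *Nes*, the gene of the progenitor filament protein nestin, was highest in endothelial cells (244 CPM, range 149 to 347), with no overlap with pericytes (117 CPM, range 21.6 to 120). *Osmr*, the oncostatin M receptor gene, was also highest in endothelial cells (94.7 CPM, range 59.5 to 170), overlapping with pericytes (63.8 CPM, range 21.6 to 72.0), and stood at 9.4 CPM in astrocytes. *Vim* was highest in pericytes (2556 CPM), ependymal cells (2056 CPM) and leptomeningeal cells (1834 CPM), whose ranges overlapped. *Cryab*, the gene of the small heat shock protein alpha B-crystallin, and *Serpina3n*, a secreted protease inhibitor gene, had their highest medians in oligodendrocyte lineage cells (534 and 181 CPM), overlapping with the next cluster. For *Cryab* leptomeningeal cells (436 CPM), ependymal cells (232 CPM) and astrocytes (201 CPM) followed, all overlapping. For *Serpina3n* astrocytes came next (78.6 CPM), and at 28 dpi under PLX5622 they stood above oligodendrocyte lineage cells, at 422 against 181 CPM. *Stat3* was spread over many clusters, at 133 CPM in endothelial cells, 128 CPM in oligodendrocyte lineage cells and in pericytes, and 116 CPM in neutrophils, all overlapping.

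**Figure D2:**
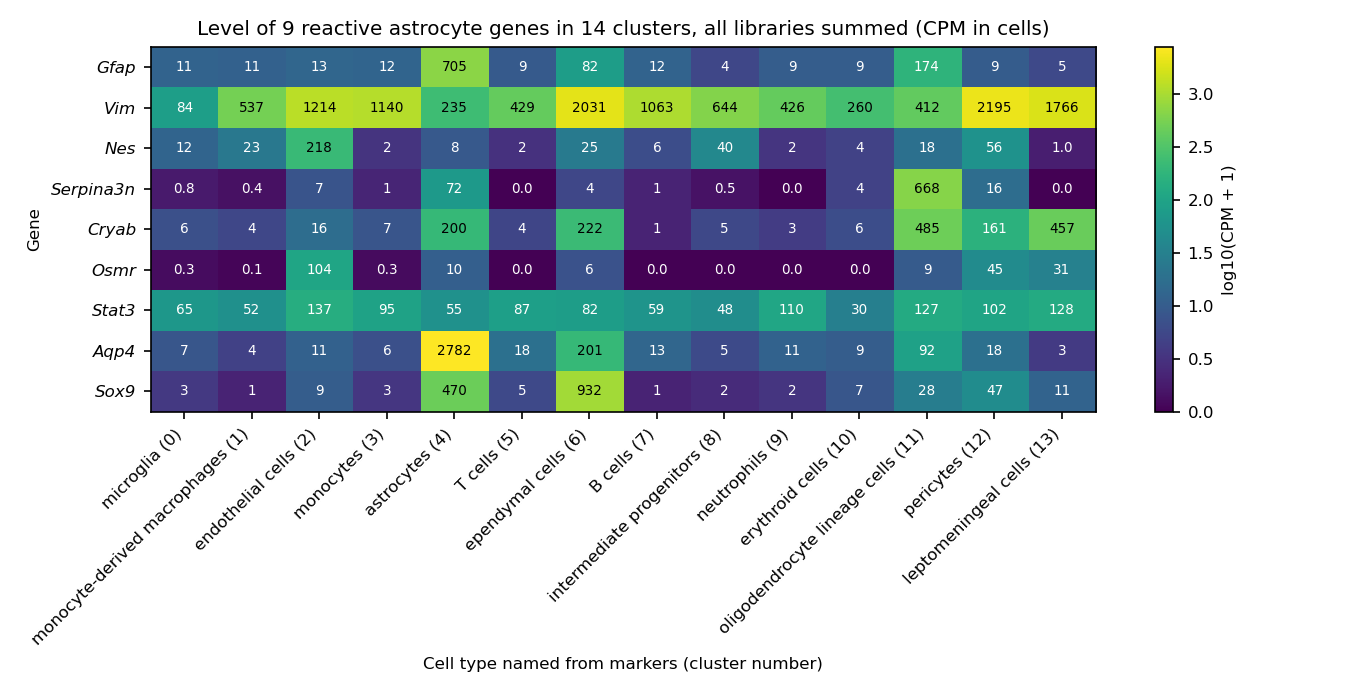
Level of the 9 genes (rows) in the 14 clusters (columns, with the cluster number), as CPM over the cells of all 6 libraries, printed in each cell and colored by log10(CPM + 1). *Gfap* (705 CPM) and *Aqp4* (2782 CPM) were highest in the astrocyte cluster, *Sox9* in the ependymal cluster (932 CPM), *Nes* (218 CPM) and *Osmr* (104 CPM) in the endothelial cluster, and *Vim* in pericytes (2195 CPM) and ependymal cells (2031 CPM).

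Among the intermediate filament genes, *Gfap* was higher in astrocytes of injured than of sham cords at both times under both diets. GFAP is the main filament protein of mature astrocytes. Under vehicle *Gfap* was at 119 CPM [96.3, 146] in sham cords, 1578 CPM [1402, 1771] at 7 dpi and 336 CPM [282, 396] at 28 dpi. Under PLX5622 it was at 237 CPM [199, 280] in sham cords, 4799 CPM [4389, 5237] at 7 dpi and 2639 CPM [2387, 2911] at 28 dpi. In all cells no interval of these 6 libraries overlapped another, and both 7 dpi libraries were the highest of their diet. For PLX5622 this order rested on 1 cell that held 332 of the 504 *Gfap* UMIs of 7 dpi. Without that cell the 7 dpi PLX5622 level was below that of 28 dpi. The log2 ratio to sham was 3.73 [3.38, 4.08] at 7 dpi and 1.49 [1.10, 1.89] at 28 dpi under vehicle, and 4.34 [4.06, 4.62] and 3.48 [3.19, 3.76] under PLX5622.

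In myeloid-low cells the *Gfap* levels of the vehicle cords were 118, 3609 and 688 CPM, with log2 ratios to sham of 4.94 [4.57, 5.32] at 7 dpi and 2.55 [2.12, 2.98] at 28 dpi. The injured vehicle cords stood higher than in all cells, and the order of the 3 libraries was the same. Without the cell of most UMIs as well, the 7 dpi PLX5622 level was 1965 CPM [1657, 2314], 3.05 [2.70, 3.40] above sham on the log2 scale. It was then below the 28 dpi PLX5622 level of the same cell set. At 28 dpi under PLX5622, *Gfap* UMIs were spread over 67 of 107 cells, and the 5 cells with the most held 32.0% of them.

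Between diets, the *Gfap* log2 ratio of PLX5622 to vehicle was 0.99 [0.60, 1.39] for sham, 1.60 [1.39, 1.82] for 7 dpi and 2.97 [2.69, 3.26] for 28 dpi. The 7 dpi value did not hold across cell sets. It was 0.45 [0.21, 0.69] in myeloid-low cells and 0.33 [0.05, 0.61] without the cell of most UMIs of each library. With both these cells and the cells of 3 or more myeloid UMIs left out it was -0.88 [-1.20, -0.56], so its direction turned. At 28 dpi it was 1.98 [1.67, 2.31] and 2.03 [1.71, 2.36] in myeloid-low cells, with and without the cell of most UMIs, which is a 3.95-fold and a 4.07-fold higher level under PLX5622.

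*Vim*, the gene of the filament protein vimentin that reactive astrocytes assemble with GFAP, was low in astrocytes of sham cords. Its levels under vehicle were 24.4 CPM [14.7, 38.1], 267 CPM [197, 353] and 220 CPM [177, 270] in sham, 7 dpi and 28 dpi cords. Under PLX5622 they were 11.9 CPM [4.8, 24.6], 2552 CPM [2256, 2876] and 574 CPM [460, 708], and the 7 dpi value was 221 CPM without 1 cell. Both sham libraries were thus below all 4 injured ones. At 28 dpi vehicle, 81 of the 91 *Vim* UMIs were in the 109 cells with 3 or more myeloid UMIs, and the level in the others was 67.4 CPM [32.3, 124]. Microglia of the same library had *Vim* at 98.8 CPM and monocyte-derived macrophages at 425 CPM.

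The *Vim* log2 ratio of PLX5622 to vehicle at 28 dpi was 1.39 [0.94, 1.83] in all cells and 3.14 [2.19, 4.25] in myeloid-low cells, that is, 86 UMIs in 103 cells against 10 UMIs in 136 cells. At 7 dpi the same ratio was 3.26 [2.81, 3.73] in all cells and 0.21 [-0.71, 1.08] without the cell of most UMIs of each library. It was -0.30 [-1.49, 0.91] with both left out. The vehicle cell left out held 16 of the 49 *Vim* UMIs of its library. With that cell kept, the vehicle level was above the PLX5622 level without its own cell. The sham ratio of -1.03 [-2.52, 0.28] rests on 7 and 19 UMIs.

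*Nes*, which astrocytes can take up again after injury, was at the limit of detection. Its UMIs in the astrocyte cluster numbered 0, 1 and 3 in sham, 7 dpi and 28 dpi vehicle cords and 0, 11 and 3 under PLX5622. Only the 7 dpi PLX5622 library stood out, at 105 CPM [52.3, 187], and 10 of its 11 UMIs were in 1 cell. A count of 3 or fewer in both libraries gives no ratio, so *Nes* could not be compared at 28 dpi.

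**Figure D3:**
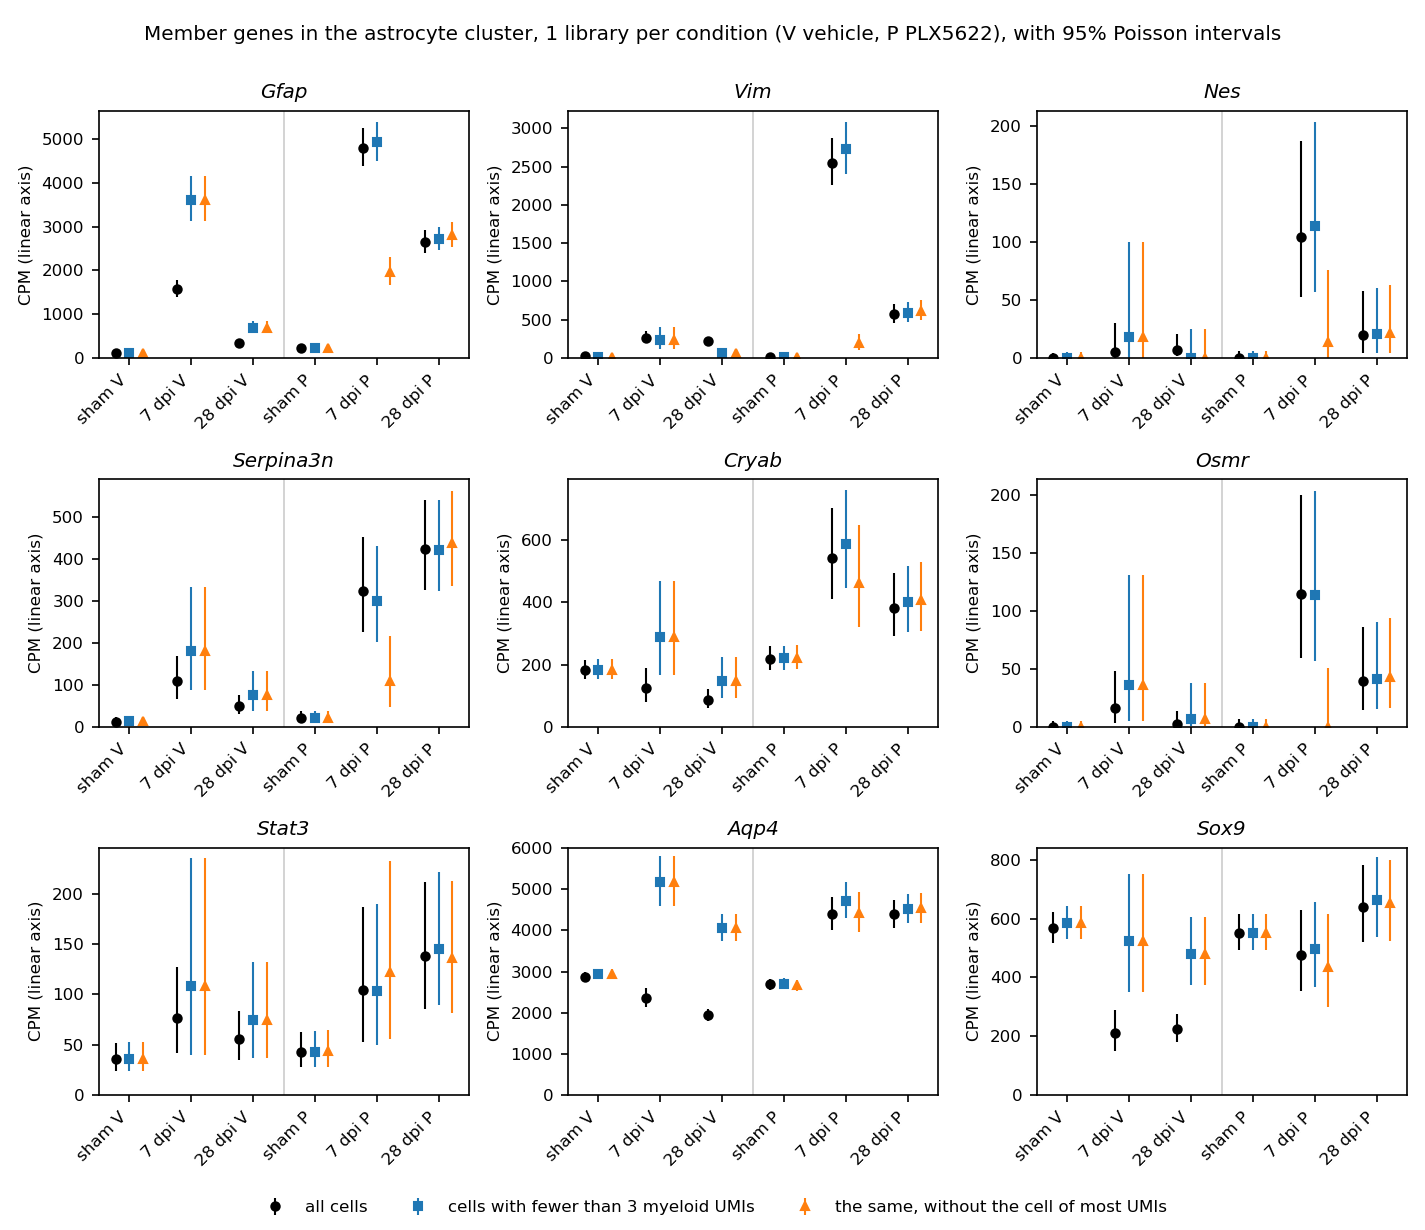
CPM of the 9 genes in the astrocyte cluster (linear y axes that differ between panels) in the 6 libraries (V vehicle, P PLX5622), with exact Poisson 95% intervals, for all cells (circles), myeloid-low cells (squares) and these without the cell of most UMIs (triangles). At 28 dpi the *Gfap* values of the 3 cell sets under PLX5622 lie between 2639 and 2801 CPM and those under vehicle between 336 and 688 CPM, whereas at 7 dpi under PLX5622 the *Vim* values run from 2727 to 191 CPM.

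*Serpina3n*, among the best known markers of reactive astrocytes, belongs to a family of near-identical genes, so its counts are uncertain to the extent that reads could be shared. It was at 11.5 CPM [5.3, 21.9] in sham, 109 CPM [66.5, 168] in 7 dpi and 48.3 CPM [29.5, 74.6] in 28 dpi vehicle cords. Under PLX5622 it was at 20.5 CPM [10.6, 35.8], 324 CPM [224, 452] and 422 CPM [325, 539]. The 28 dpi PLX5622 library was the highest, and its interval overlapped only with that of the 7 dpi PLX5622 library, whose level was 160 CPM without 1 cell.

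At 28 dpi the *Serpina3n* log2 ratio of PLX5622 to vehicle was 3.13 [2.38, 3.93] from 64 and 20 UMIs, and 2.50 [1.57, 3.58] in myeloid-low cells. At 7 dpi it was 1.57 [0.73, 2.45] in all cells and -0.72 [-2.27, 0.77] with both left out, from 8 and 10 UMIs, an interval that includes no difference. To sham, the ratio at 28 dpi was 2.06 [0.86, 3.38] under vehicle and 4.37 [3.46, 5.39] under PLX5622.

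*Cryab*, whose protein is a chaperone that binds filaments, was readily found in sham astrocytes too. It was at 183 CPM [155, 216] in sham, 125 CPM [79.3, 188] in 7 dpi and 86.9 CPM [60.9, 120] in 28 dpi vehicle cords. Under PLX5622 it was at 218 CPM [182, 260], 543 CPM [411, 703] and 383 CPM [291, 495], and the 7 dpi level was 417 CPM without 1 cell. The vehicle libraries of injured cords were thus the lowest and the PLX5622 libraries of injured cords the highest. *Cryab* overlaps *Hspb2* on the other strand. *Hspb2* had 3 UMIs in the cluster.

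In myeloid-low cells the *Cryab* levels of injured vehicle cords were 289 CPM [165, 469] and 148 CPM [92.9, 225], and the log2 ratio of 28 dpi to sham was -0.30 [-1.02, 0.35] in place of -1.08 [-1.65, -0.54]. The ratio of PLX5622 to vehicle at 28 dpi was 2.14 [1.51, 2.78] in all cells and 1.43 [0.70, 2.21] in myeloid-low cells. At 7 dpi it was 2.12 [1.39, 2.88] in all cells and 0.68 [-0.21, 1.64] with both left out.

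Of the receptor and its signal, *Osmr* had no UMI in astrocytes of either sham library. It had 3 UMIs at 7 dpi and 1 at 28 dpi under vehicle, and 12 at 7 dpi and 6 at 28 dpi under PLX5622, which are 16.3, 2.4, 114 and 39.6 CPM. Of the 12, 11 were in 1 cell. Against the sham PLX5622 library, set to 3 counts, the 28 dpi level was 7.73-fold higher. This value has no interval and leaves out the counting error of its 6 UMIs. The ratio of PLX5622 to vehicle at 28 dpi, from 6 and 1 UMIs, was 4.03 [0.99, 9.56] on the log2 scale.

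*Stat3* was low but detected in every library. It was at 35.9 CPM [23.9, 51.9], 76.2 CPM [41.7, 128] and 55.5 CPM [35.2, 83.3] in sham, 7 dpi and 28 dpi vehicle cords and at 42.7 CPM [27.6, 63.0], 105 CPM [52.3, 187] and 139 CPM [85.8, 212] under PLX5622, where 1 of the 11 UMIs of 7 dpi was in the cell of most UMIs. The sham levels were the lowest of each diet, and the intervals of sham and injured cords overlapped under vehicle. Under PLX5622 the sham interval overlapped with that of 7 dpi but not with that of 28 dpi. The log2 ratio to sham was 1.09 [0.05, 2.06] at 7 dpi and 0.63 [-0.23, 1.48] at 28 dpi under vehicle, and 1.30 [0.12, 2.37] and 1.70 [0.79, 2.60] under PLX5622. Between diets it was 1.32 [0.39, 2.24] at 28 dpi in all cells and 0.97 [-0.15, 2.17] in myeloid-low cells.

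Other genes of this pathway were examined as well. The ligand genes *Il6* and *Lif* had no UMI in astrocytes and *Osm* had 4, and *Osm* was highest in neutrophils (118 CPM). The receptor gene of ciliary neurotrophic factor, *Cntfr*, was at 713, 141 and 273 CPM in sham, 7 dpi and 28 dpi vehicle astrocytes and at 737, 305 and 521 CPM under PLX5622, so the sham libraries were the highest under both diets. In myeloid-low cells these values were 732, 271 and 512 CPM and 739, 331 and 545 CPM. Of 8 receptor and kinase genes, 3 had at least 50 UMIs in both 28 dpi libraries together. Only *Lifr*, the receptor gene of leukemia inhibitory factor, was at least 2-fold higher under PLX5622, beside 19.4% of all genes. In myeloid-low cells 0 of 2 were higher, beside 5.70% of all genes. The kinase gene *Jak1* stayed between 152 and 199 CPM in all 6 libraries. Of 8 inhibitors and targets of STAT3, only *Junb*, an AP-1 subunit gene that was highest in microglia, had that many UMIs. *Junb* was lower under PLX5622, beside 17.4% of all genes. It was at 44.9, 201 and 188 CPM under vehicle and at 32.4, 28.6 and 26.4 CPM under PLX5622, and at 10.7 to 31.0 CPM in myeloid-low cells of the 6 libraries.

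The remaining members, *Aqp4* and *Sox9*, belong to astrocytes also in the intact cord. *Aqp4* encodes the water channel of astrocyte endfeet. It was at 2866 CPM [2749, 2988] in sham, 2362 CPM [2145, 2595] in 7 dpi and 1942 CPM [1810, 2081] in 28 dpi vehicle cords, and at 2689 CPM [2558, 2826], 4390 CPM [3998, 4809] and 4394 CPM [4067, 4741] under PLX5622, with 4025 CPM at 7 dpi without 1 cell. Injured cords thus stood below sham under vehicle and above sham under PLX5622.

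In myeloid-low cells *Aqp4* was above sham under both diets: 2943, 5179 and 4051 CPM under vehicle and 2699, 4721 and 4518 CPM under PLX5622. The log2 ratio to sham at 7 dpi changed from -0.28 [-0.43, -0.13] to 0.82 [0.63, 0.99] under vehicle, against 0.71 [0.55, 0.86] and 0.81 [0.65, 0.96] under PLX5622. At 28 dpi it changed from -0.56 [-0.68, -0.45] to 0.46 [0.33, 0.59] under vehicle, against 0.71 [0.58, 0.84] and 0.74 [0.61, 0.88]. Correspondingly, the ratio of PLX5622 to vehicle at 28 dpi was 1.18 [1.03, 1.33] in all cells and 0.16 [-0.00, 0.32] in myeloid-low cells.

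*Sox9* was also below sham in injured cords under vehicle. Under PLX5622 it was above sham only at 28 dpi, where the intervals overlapped. It was at 567 CPM [515, 622], 212 CPM [151, 290] and 225 CPM [181, 275] in sham, 7 dpi and 28 dpi vehicle cords and at 551 CPM [493, 615], 476 CPM [353, 628] and 640 CPM [519, 781] under PLX5622, with 417 CPM at 7 dpi without 1 cell. The injured vehicle libraries were the lowest and did not overlap with the others. In myeloid-low cells they stood at 523 CPM [350, 752] and 479 CPM [374, 604], within a log2 ratio of -0.16 [-0.75, 0.39] and -0.29 [-0.67, 0.08] of sham. The ratio of PLX5622 to vehicle at 28 dpi was 1.51 [1.09, 1.94] in all cells and 0.47 [0.01, 0.93] in myeloid-low cells.

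A gene was counted as higher or lower when its level differed at least 2-fold between libraries and it had at least 50 UMIs in both together. A gene that is high in 1 library passes this minimum more easily, so the counts below describe the members that passed and support nothing by themselves. Between 4 and 6 of the 9 members passed in each comparison. *Nes* and *Osmr* passed in none, and *Stat3* in 2.

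At 7 dpi against sham under vehicle, 2 of 5 members were higher (*Gfap* and *Vim*) beside 11.9% of all genes tested, and 1 was lower (*Sox9*) beside 29.3%. At 28 dpi under vehicle 2 of 6 were higher (the same genes) beside 11.3%, and *Cryab* and *Sox9* were lower beside 16.9%. Among myeloid-low cells only *Gfap* of 4 members was higher at each time, beside 11.8% and 5.62% of all genes, and none was lower, beside 19.0% and 7.33%. The median log2 ratio of the members that passed in all cells was -0.28 at 7 dpi and 0.03 at 28 dpi, and that of all genes -0.41 and -0.31.

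Under PLX5622, 3 of 5 members were higher at 7 dpi than in sham cords (*Gfap*, *Vim* and *Cryab*) beside 8.76% of all genes. At 28 dpi 3 of 6 were higher (*Gfap*, *Vim* and *Serpina3n*) beside 5.25%. None was lower, beside 11.4% and 6.63%. The median log2 ratio of the members that passed was 1.31 at 7 dpi and 2.14 at 28 dpi, and that of all genes tested was -0.03 and 0.05. The same genes were counted in myeloid-low cells, beside 7.45% of genes higher and 10.3% lower at 7 dpi and 5.42% and 6.32% at 28 dpi. Without the cell of most UMIs, 1 of 4 was higher at 7 dpi (*Gfap*) beside 7.09%, and none lower beside 10.9%. With both left out, 2 of 4 were higher at 7 dpi (*Gfap* and *Cryab*) beside 5.13%, with none lower beside 10.5%, and the same 3 of 6 at 28 dpi beside 5.06%, with none lower beside 6.57%.

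Between diets, none of 5 members differed 2-fold in sham cords, where 1.18% of all genes were higher and 1.22% lower under PLX5622. *Gfap* was just below this limit at 1.99-fold and just above it, at 2.01-fold, in myeloid-low cells, where 1.07% of all genes were higher and 0.685% lower. It was above it with both left out too, beside 1.22% higher and 0.759% lower. At 7 dpi 5 of 6 members were higher under PLX5622 beside 18.1% of all genes, and none was lower, beside 22.3%. The median log2 ratio was 1.59 for these members and 0.19 for all genes. In myeloid-low cells 2 of 5 were higher (*Vim* and *Cryab*) beside 6.47%, and none lower beside 4.56%. Without the cell of most UMIs the count was 1 of 5 (*Cryab*) beside 17.8%, with none lower beside 25.8%. With both left out it was 0 of 4 beside 6.40%, with none lower beside 6.71%.

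At 28 dpi 6 of 6 members were higher under PLX5622 beside 19.4% of all genes, and none was lower, beside 17.4%. In myeloid-low cells 4 of 6 were higher (*Gfap*, *Vim*, *Serpina3n* and *Cryab*), beside 5.70% of all genes, and the same 4 with both left out, beside 5.31%. None was lower in either, beside 2.13% and 2.31%. The median log2 ratio was 1.82 for the members and 0.26 for all genes in all cells, and 1.71 and -0.01 in myeloid-low cells.

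Another scaling shifts all ratios of a comparison by a constant. With TMM factors, which balance the bulk of genes, the log2 ratios to sham in all cells shift by 0.15 at 7 dpi and 0.24 at 28 dpi under vehicle and by -0.18 and -0.24 under PLX5622, and those between diets by -0.04 for sham, -0.38 for 7 dpi and -0.52 for 28 dpi. The ratio of *Sox9* at 28 dpi to sham under PLX5622, 0.22 [-0.13, 0.55], is about 0 with this scaling. Between diets at 28 dpi, *Vim* is then at 0.87, *Sox9* at 0.99 and *Aqp4* at 0.66, below 2-fold, with *Gfap* at 2.46, *Serpina3n* at 2.61 and *Cryab* at 1.62. None of these 6 changes sign.

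**Figure D4:**
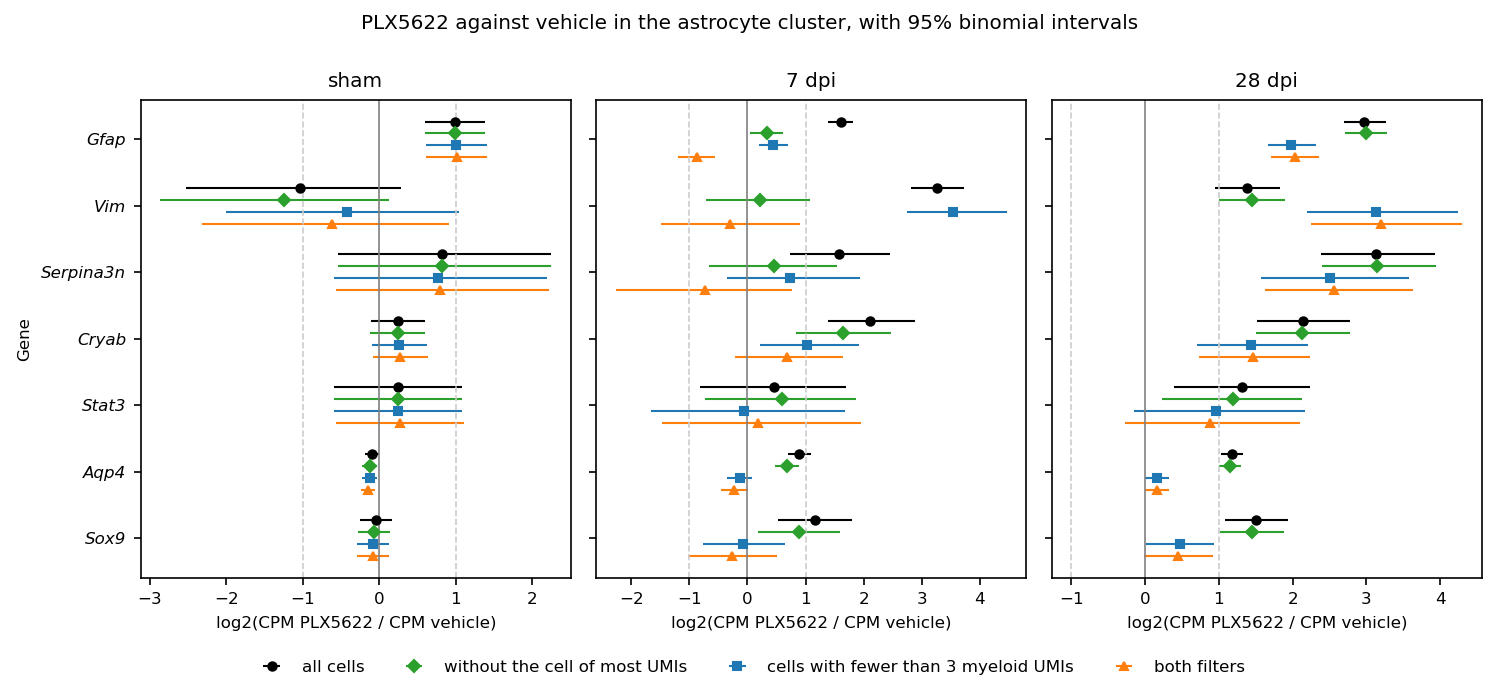
Log2 ratio of the CPM under PLX5622 to that under vehicle in the astrocyte cluster (x axis, with exact conditional binomial 95% intervals) for 7 genes in sham, 7 dpi and 28 dpi cords, in all cells (black), without the cell of most UMIs (green), in myeloid-low cells (blue) and with both left out (orange). At 28 dpi *Gfap* lies between 1.98 and 2.99 in the 4 cell sets, and at 7 dpi it runs from 1.60 to -0.88.

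The share of astrocytes with a UMI was compared after each cell was thinned to 1000 UMIs, which left 225, 51 and 147 vehicle cells and 127, 24 and 56 PLX5622 cells. *Gfap* was found in 8.44% [5.16, 12.9] of sham, 56.9% [42.2, 70.7] of 7 dpi and 17.0% [11.3, 24.1] of 28 dpi vehicle cells. It was found in 15.7% [9.89, 23.3], 62.5% [40.6, 81.2] and 57.1% [43.2, 70.3] of PLX5622 cells. A share, unlike a CPM, counts the cell of most UMIs only once, and here the 7 dpi libraries of both diets overlapped, whereas those of 28 dpi did not. Among myeloid-low cells the thinned *Gfap* shares were 8.18%, 76.0% and 29.9% under vehicle and 15.7%, 61.9% and 57.4% under PLX5622, so that vehicle stood above PLX5622 at 7 dpi and the 28 dpi difference was smaller than in all cells. Unthinned, the shares in all cells were 20.6%, 58.0% and 24.1% under vehicle and 31.9%, 71.8% and 62.6% under PLX5622. In T cells, which should lack the gene, the thinned share was 0 to 1.64%, at a median depth of 1233 to 4341 UMIs against 1054 to 2057 in astrocytes.

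For *Serpina3n* the thinned shares were 1.78%, 11.8% and 3.40% under vehicle and 3.15%, 25.0% and 30.4% under PLX5622, with no T cell positive in any library (21 to 241 cells each, which allows a share of cells with a UMI of up to 1.24% to 14.3%). *Aqp4* was found in 88.0%, 66.7% and 69.4% of vehicle cells and 88.2%, 83.3% and 98.2% of PLX5622 cells. Among myeloid-low cells the *Aqp4* share of injured vehicle cells was 100% and 97.0%. *Vim* was found in 10.2% of 28 dpi vehicle cells and 17.9% of 28 dpi PLX5622 cells. Of the myeloid-low cells it was found in 0 of 67 and 18.5%, where 0 of 67 allows up to 4.48% of cells with a UMI at this thinned depth and sets no limit on cells that express the gene. Unthinned, 7.5% of the 40 myeloid-low cells of 28 dpi vehicle with a *Gfap* UMI and 4.17% of the 96 without had a *Vim* UMI.

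**Figure D5:**
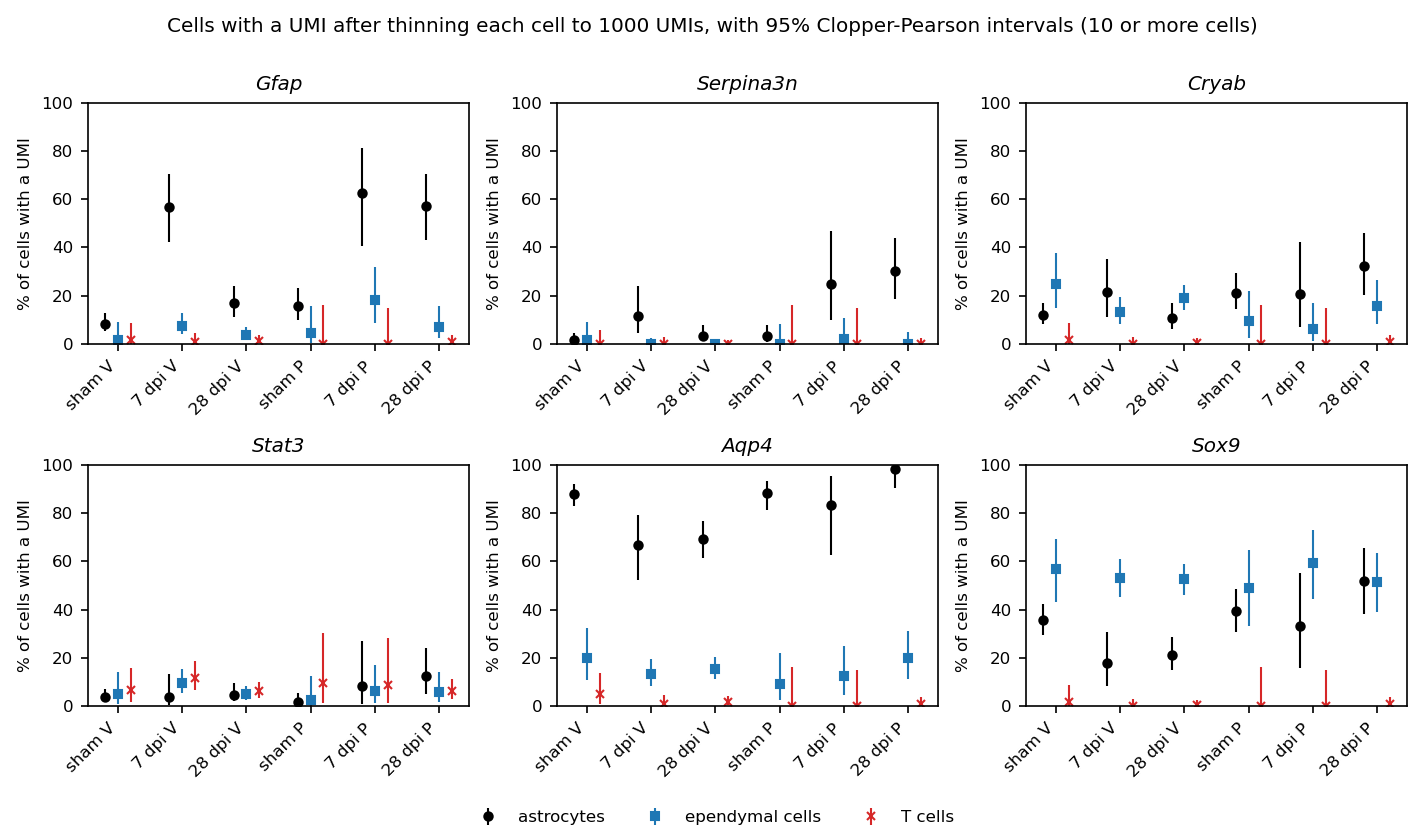
Percent of cells with at least 1 UMI of a gene after thinning each cell to 1000 UMIs, with Clopper-Pearson 95% intervals, in astrocytes (circles), ependymal cells (squares) and T cells (crosses) of the 6 libraries. *Gfap* was found in 57.1% of astrocytes at 28 dpi under PLX5622 and 17.0% under vehicle (57.4% and 29.9% of myeloid-low cells, not drawn), and in at most 1.64% of T cells.

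Whether members were found in the same cells varied between libraries and genes. At 28 dpi under PLX5622, *Serpina3n* was found in 38.8% of the 67 astrocytes with a *Gfap* UMI and in 15.0% of the 40 without, *Cryab* in 34.3% and 10.0%, and *Vim* in 26.9% and 0 of 40, but *Stat3* in 13.4% and 17.5%. At 28 dpi under vehicle, with 59 and 186 cells, these shares were 11.9% and 4.84% for *Serpina3n*, 11.9% and 14.5% for *Cryab*, 18.6% and 15.1% for *Vim* and 13.6% and 5.38% for *Stat3*. At 7 dpi under vehicle, with 40 and 29 cells, they were 25.0% and 17.2% for *Serpina3n*, 30.0% and 10.3% for *Cryab*, 20.0% and 20.7% for *Vim* and 15.0% and 17.2% for *Stat3*. Myeloid-low vehicle cells gave other shares. With 40 and 96 such cells at 28 dpi, *Serpina3n* was in 12.5% and 4.17%, *Cryab* in 17.5% and 13.5%, *Vim* in 7.5% and 4.17% and *Stat3* in 17.5% and 2.08%. With 26 and 11 at 7 dpi, *Serpina3n* was in 23.1% and 18.2%, *Cryab* in 26.9% and 27.3%, *Vim* in 15.4% and 0 of 11 and *Stat3* in 7.69% and 9.09%. At 7 dpi under PLX5622 only 11 astrocytes had no *Gfap* UMI. Cells with a *Gfap* UMI were deeper at 28 dpi, with medians of 1267 against 725.5 UMIs under PLX5622 and 1490 against 1041 under vehicle, but not at 7 dpi under vehicle (1984 against 2203). Among myeloid-low cells of 7 dpi vehicle they were deeper too, at 1589 against 783 UMIs. The part of depth in these shares was not tested, and 0 of 40 or 0 of 11 at these depths sets no limit on cells that express *Vim*.

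Ependymal cells, the ciliated lining of the central canal, carried most members as well. Their *Gfap* level was 30.4, 93.2 and 55.9 CPM in sham, 7 dpi and 28 dpi vehicle cords and 29.7, 174 and 83.5 CPM under PLX5622, so that 7 dpi was the highest in each diet. The log2 ratio of 7 dpi to sham was 1.61 [0.71, 2.64] under vehicle and 2.55 [1.65, 3.60] under PLX5622. *Stat3* was at 48.2, 103 and 79.3 CPM under vehicle, a 7 dpi ratio to sham of 1.10 [0.35, 1.92], and at 51.3, 87.8 and 104 CPM under PLX5622. *Cryab* went the other way at 7 dpi, at 254, 112 and 322 CPM under vehicle and 294, 158 and 210 CPM under PLX5622, with 7 dpi ratios of -1.18 [-1.63, -0.73] and -0.90 [-1.32, -0.48]. In myeloid-low ependymal cells the vehicle ratio of *Cryab* was -0.78 [-1.32, -0.25]. *Sox9* stayed between 783 and 1249 CPM and *Vim* between 1679 and 2589 CPM. The share of ependymal cells with 3 or more myeloid UMIs was 42.2% and 40.0% in injured vehicle cords and 7.69% and 15.5% under PLX5622, and in myeloid-low ependymal cells the 7 dpi *Gfap* ratio under vehicle was 2.01 [1.04, 3.08].

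In the other clusters, *Serpina3n* of oligodendrocyte lineage cells was at 76.9, 705 and 76.1 CPM in sham, 7 dpi and 28 dpi vehicle cords and at 63.4, 1790 and 181 CPM under PLX5622, where the sham library had 4 cells. The 7 dpi libraries were the highest of each diet. At 7 dpi under PLX5622, 120 of 263 UMIs were in 1 cell, and the level without it was 1163 CPM. *Nes* of endothelial cells was at 314, 149 and 217 CPM under vehicle and 347, 184 and 271 CPM under PLX5622, the lowest at 7 dpi in each diet. Endothelial *Osmr* was at 97.1, 108 and 92.4 CPM under vehicle and 59.5, 170 and 90.3 CPM under PLX5622.

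Further gene lists place the members among related genes. Of 9 other genes commonly reported in all reactive astrocytes, 2 had enough UMIs at 28 dpi between diets, and both were higher under PLX5622, beside 19.4% of all genes. *Hspb1* passed the minimum mainly through the PLX5622 library, with 60 UMIs against 10, and *Cd44* had 39 against 29, so the count is a description only. *Hspb1*, a small heat shock protein gene, was at 14.1, 10.9 and 24.1 CPM under vehicle and 0, 648 and 396 CPM under PLX5622. *Cd44*, a hyaluronan receptor gene, was at 2.6, 65.3 and 70.0 CPM under vehicle and 1.7, 209 and 257 CPM under PLX5622. Without the cell of most UMIs the 7 dpi PLX5622 values were 294 CPM for *Hspb1* and 61.3 CPM for *Cd44*, so both genes were then highest at 28 dpi under PLX5622. Their 28 dpi log2 ratios between diets in myeloid-low cells were 4.36 [2.74, 6.67] and 2.15 [1.08, 3.38].

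Of 12 genes assigned to the neurotoxic A1 state, 3 had enough UMIs at 28 dpi between diets and all 3 were lower under PLX5622 (*H2-D1*, *Psmb8* and *Srgn*), beside 17.4% of all genes. They reached the minimum through the vehicle library, in which they were high. Over all clusters *H2-D1* and *Psmb8* were highest in T cells and *Srgn* in neutrophils, and none of them had enough UMIs in myeloid-low astrocytes. *H2-D1*, a class I histocompatibility gene, was at 70.5, 653 and 686 CPM under vehicle and 44.4, 248 and 92.4 CPM under PLX5622 in all cells. In myeloid-low cells it was at 37.4, 90.2 and 135 CPM under vehicle and 44.6, 155 and 48.3 CPM under PLX5622. Of the A2 list only *S100a10* had enough UMIs, with a 28 dpi ratio of 1.14 [0.32, 1.95] in all cells and -0.03 [-0.90, 0.84] in myeloid-low cells.

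*Kcnj10*, the gene of a potassium channel found with aquaporin-4 at astrocyte endfeet, was at 922, 996 and 708 CPM under vehicle and 812, 1038 and 1009 CPM under PLX5622. In myeloid-low cells it was at 934, 1949 and 1355 CPM under vehicle and 812, 1095 and 1000.2 CPM under PLX5622, and at 28 dpi the log2 ratio between diets was -0.44 [-0.76, -0.12]. Of the astrocyte transcription factor genes listed beside *Sox9*, 3 of 5 were higher under PLX5622 at 28 dpi (*Sox2*, *Nfib* and *Id4*), beside 19.4% of all genes. In myeloid-low cells 0 of 5 were higher, where the share of all genes was also smaller, at 5.70%. These counts are a description only. Other filament genes were too low for a count. *Plec*, the gene of a protein that links filaments, was at 21.8, 81.6 and 36.2 CPM under vehicle and 23.9, 209 and 178 CPM under PLX5622, and at 73.6 CPM at 7 dpi under PLX5622 without the cell of most UMIs.

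Over the 48 sums of a library and a cluster with at least 50 cells, the gene whose level was most like that of a member, by Pearson's r of log2(CPM + 10) among 9451 genes, was *Aqp4* for *Gfap* (r = 0.86), *Abhd3* for *Aqp4* (0.97), *Id4* for *Sox9* (0.97), *Map1a* for *Cryab* (0.95) and *C1ql1* for *Serpina3n* (0.88). It was *Sema3c* for *Osmr* (0.95), *Flt1* for *Nes* (0.90), *Anxa2* for *Vim* (0.87) and *Rab2a* for *Stat3* (0.78). The points share libraries and depth, and r is given as a description. By this measure *Vim* and *Gfap* were not alike over all cell types (r = -0.08).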

How the data were processed

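Single-cell RNA-seq of 6 libraries was used. The authors aligned reads to GRCm38/mm10 and counted UMIs with Cell Ranger (3.0.2 in the matrix headers), and filtered and clustered cells with Seurat. The deposited values are raw UMI counts per gene and cell, with a cluster number per cell, without the 254 barcodes under 200 genes. Although the stated filter has a maximum of 3000 genes, 716 cells of the table exceed it, and they were kept. Library totals ran from 2606149 to 35694246 UMIs.

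From these counts, UMIs were summed by library and cluster, and levels are CPM of these sums with exact Poisson intervals. Log2 ratios have exact conditional binomial intervals, with a gene at 0 set to 3 counts per library and no ratio where both libraries had 3 counts or fewer. Shares have Clopper-Pearson intervals. Clusters were named from 78 markers. The text names the members, up to 4 genes of each list with the most UMIs in cluster 4, the genes of a list counted at 2-fold where these were 5 or fewer, and genes most like a member. The count over the list of endfoot genes is not reported here. The members and lists were chosen with earlier results of these data known. Alternatives were scaling by TMM (edgeR 4.0.16) or DESeq2 (1.42.0), equal weight per cell, thinning to 1000 UMIs, at least 500 genes, removal of Scrublet doublets (scanpy 1.11.5, 0.8% expected per 1000 cells, kept otherwise) and minimums of 20 or 100 UMIs. Removal of the cell of most UMIs of each library, alone or with the myeloid filter, and a maximum of 3000 genes were chosen after seeing the data. The ratios were tested on simulated Poisson counts, which hold no spread among cells. Python 3.11.15 with scipy 1.17.1 and R 4.3.3 were used.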

Additional observations from a re-analysis of the deposited data

Results flagged for a closer look

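The injury ratios of 2 genes in the astrocyte cluster had opposite signs under the diets, with intervals that excluded 0 on both sides. The difference itself was not tested, since each group is 1 library. The log2 ratio of *Cryab* at 28 dpi to sham was -1.08 under vehicle and 0.81 under PLX5622. In myeloid-low cells it was -0.30 and 0.87. The ratio of *Aqp4* was -0.28 under vehicle and 0.71 under PLX5622 at 7 dpi, and -0.56 and 0.71 at 28 dpi. In myeloid-low cells all 4 *Aqp4* values were positive, at 0.82 and 0.81 for 7 dpi and 0.46 and 0.74 for 28 dpi.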

How the results depend on the processing

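No paired analysis was possible because each condition is 1 library, and no replicate could be left out. Of 120 counts of members under an alternative, 86 were within 1.5 times the count reported, and of 517 log2 ratios 375 moved by less than their counting error, 134 moved by more, and 8 that had been counted at 2-fold changed sign. Of the 54 unthinned shares of cells, 30 stayed within their interval once cells were thinned to 1000 UMIs and 24 did not. The causes of these changes were not tested.

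At 7 dpi against sham under vehicle, the 2 members higher became 1 with thinning, with fewer than 3 myeloid UMIs (alone or without the cell of most UMIs), without doublets or with a minimum of 100 UMIs, and 4 with a minimum of 20 UMIs. The 1 lower became 0 with cells weighted alike and with fewer than 3 myeloid UMIs (alone or without the cell of most UMIs). At 28 dpi under vehicle, the 2 higher became 1 with thinning and with both sets of fewer than 3 myeloid UMIs. The 2 lower became 1 with TMM or DESeq2 scaling and 0 with cells weighted alike, thinning, no doublets and both sets of fewer than 3 myeloid UMIs.

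Between diets in sham cords, the 0 higher became 1 (*Gfap*) with thinning, at least 500 genes, at most 3000 genes and both sets of fewer than 3 myeloid UMIs, and the 0 lower became 1 with a minimum of 20 UMIs. At 7 dpi, the 5 higher became 2 with cells weighted alike, fewer than 3 myeloid UMIs or a minimum of 100 UMIs, 1 without the cell of most UMIs or with at most 3000 genes, and 0 with thinning or with both left out. At 28 dpi the 6 higher became 3 with TMM or DESeq2 scaling.

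These 8 were ratios of PLX5622 to vehicle at 7 dpi. *Gfap* went to -0.12 with thinning and -0.88 with both left out, *Vim* to -0.30 with both left out, and *Serpina3n* to -0.21 with cells weighted alike and -0.72 with both left out. *Sox9* went to -0.12 with cells weighted alike, -0.08 with fewer than 3 myeloid UMIs and -0.26 with both left out.

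The libraries held 39 to 310 astrocytes with a median of 1054 to 2057 UMIs, and *Nes* and *Osmr* in every comparison and *Stat3* in most had fewer than 50 UMIs. Their ratios therefore have wide intervals and enter no count of members.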

Other observations

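*Gfap* UMIs outside astrocytes and ependymal cells were often in few cells. In microglia at 7 dpi under PLX5622, 39 of 47 *Gfap* UMIs were in 1 cell, and the level fell from 123 to 21.6 CPM without it. In oligodendrocyte lineage cells, *Gfap* was at 626 CPM in that library, with 92 UMIs in 9 of 28 cells, and at 24.4 CPM at 7 dpi under vehicle, with 8 UMIs in 7 of 107 cells. *Vim* of these cells was at 1613 CPM at 7 dpi under PLX5622, with 87 of 237 UMIs in 1 cell, and at 192 CPM at 7 dpi under vehicle.

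*Vim* of monocyte-derived macrophages was at 490.1, 572 and 425 CPM in sham, 7 dpi and 28 dpi vehicle cords and at 416, 1012 and 621 CPM under PLX5622, where the sham library had 9 of these cells. *Slc7a10*, an amino acid transporter gene of mature astrocytes, was lower in astrocytes of injured than of sham cords under both diets, at 3368, 414 and 874 CPM under vehicle and 3809, 1276 and 1788 CPM under PLX5622. In myeloid-low cells it was at 3459, 920.3 and 1618 CPM under vehicle and 3811, 1374 and 1862 CPM under PLX5622.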
